A study of Homo sapiens with 96 samples.

Results

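RNA polymerase II (Pol II) transcribes the protein-coding genes, and its core is assembled from a set of small and large subunits. POLR2A to POLR2J encode 10 of these subunits, and their alternative splicing was followed here in A549 cells treated with inhibitors of protein arginine methyltransferases (PRMTs). Every splicing event assigned by gene symbol to 1 of the 10 genes was taken from the 8 deposited rMATS tables, which hold retained introns (RI), exons that are skipped (SE) or used in place of each other (MXE), and shifted acceptors (A3SS, an alternative 3′ splice site) and donors (A5SS, an alternative 5′ splice site). This gave 136 of 239131 event rows, in 10 of 14359 genes. Rows with the same alternative stretch and different flanking exons were joined, which left 91 of 153505 alternative segments. These were 61 SE, 20 MXE, 6 A5SS, 2 A3SS and 2 RI segments.

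A549 is a human lung adenocarcinoma cell line. Poly(A) RNA was sequenced from 10 groups with 3 libraries each. GSK591, an inhibitor of PRMT5, the main enzyme of symmetric arginine dimethylation, was given at 1 µM for 2, 4 or 7 days. MS023, an inhibitor of the Type I PRMTs, which make asymmetric dimethylarginine, was given at the same dose and for the same times. Further cells received both inhibitors, each at 1 µM, for 2 or 4 days (co-treatment), and controls received 0.01% DMSO, the solvent, for 4 or 7 days. The tables compared the 2-day and the 4-day groups with the 4-day DMSO libraries, so at 2 days the inhibitor and the shorter culture cannot be told apart. The 7-day groups were compared with the 7-day DMSO libraries. The 6 comparisons at 2 and 4 days share their controls, as do the 2 comparisons at 7 days. The labels do not say whether the libraries of a group came from separate cultures, so p-values measure the spread between libraries, which may be technical. Reads on RI events numbered 3148825 to 5224249 per library, and reads on the segments of the 10 genes 36096 to 101968. These sums run over the events listed for a group. The 4-day DMSO libraries are listed for the events of 6 comparisons and other groups for fewer, so the ranges do not measure depth alone. On the events listed, the epithelial genes KRT8 (191727 to 391271 reads per library), KRT18 (17743 to 297208), CDH1 (266 to 1310) and EPCAM (5 to 297) were covered, the endothelial gene VWF and the T-cell gene CD3E had 0 to 3 and 0 to 17 reads where listed, and PECAM1 and PTPRC had no listed event.

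As background, Pol II subunits fall into those found in Pol II alone and those shared with polymerases I and III. POLR2A and POLR2B form the catalytic centre, and the tail of POLR2A, the carboxy-terminal domain, recruits splicing factors to the nascent transcript. POLR2D and POLR2G form a stalk that binds emerging RNA, POLR2I lies at the edge of the cleft and contributes to accuracy and to restart after arrest, and POLR2C and POLR2J form an assembly platform. POLR2E, POLR2F and POLR2H are shared by all 3 polymerases. A cassette exon is joined to both neighbours or skipped, and a retained intron stays in the poly(A) transcript. The inclusion level (Ψ) weighs the inclusion form of an event against its skipping form only, corrected for length, and is given below in percent. Other transcripts of the gene do not enter it. In an MXE segment the forms hold either exon of the pair without the other. Its Ψ can therefore differ from that of the same exon in an SE segment.

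Stretches of POLR2G, POLR2F and POLR2E on which results turned are shown first, 5′ to 3′ on the transcribed strand, from GRCh37 with GENCODE annotation lifted to it. Capitals mark exon bases and lower case intron bases.

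In POLR2G an alternative exon of 201 bases lies within intron 2 of the canonical transcript (chr11:62530014-62530214, plus strand). Its 3′ splice site and that of exon 3 are alternatives for the 5′ splice site of exon 2, and the 3 sites are set side by side because the POLR2G results turn on which acceptor was used.
POLR2G exon 2, 5′ splice site (chr11:62529374-62529382): GAAgtgagt
POLR2G 201-base exon, 3′ splice site (chr11:62529994-62530016): agcctccttattccctacagAAT
POLR2G exon 3, 3′ splice site (chr11:62530319-62530341): gtttctcatcctccttgcagGTA
The 201-base exon itself is given with capitals for its first in-frame stop codon, which begins at base 71 of the exon when it follows exons 1 and 2.
POLR2G 201-base exon: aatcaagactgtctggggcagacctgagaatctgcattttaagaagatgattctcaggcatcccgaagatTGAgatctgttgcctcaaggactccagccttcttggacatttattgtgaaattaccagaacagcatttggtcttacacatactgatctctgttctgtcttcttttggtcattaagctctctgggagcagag

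In POLR2F the alternative 5′ splice site of exon 2 and both ends of a 98-base exon, all within intron 2 on the plus strand of chromosome 22, are shown because these minor forms were lower with GSK591.
POLR2F exon 2, 5′ splice site (chr22:38352847-38352855): GAGgtcagt
POLR2F alternative 5′ splice site 59 bases downstream (chr22:38352906-38352914): CAGgtgatg
POLR2F 98-base exon, 3′ splice site (chr22:38354361-38354383): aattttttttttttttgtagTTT
POLR2F 98-base exon, 5′ splice site (chr22:38354476-38354484): CAGgtgtga
In POLR2E the 81-base exon 4 (chr19:1090907-1090987, minus strand, coding throughout) is shown with its flanking splice site bases because it was skipped more often with co-treatment.
POLR2E exon 4 (chr19:1090901-1091007): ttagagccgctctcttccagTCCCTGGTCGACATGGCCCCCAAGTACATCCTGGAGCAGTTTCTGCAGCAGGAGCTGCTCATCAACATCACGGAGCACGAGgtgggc

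**Figure D1:**
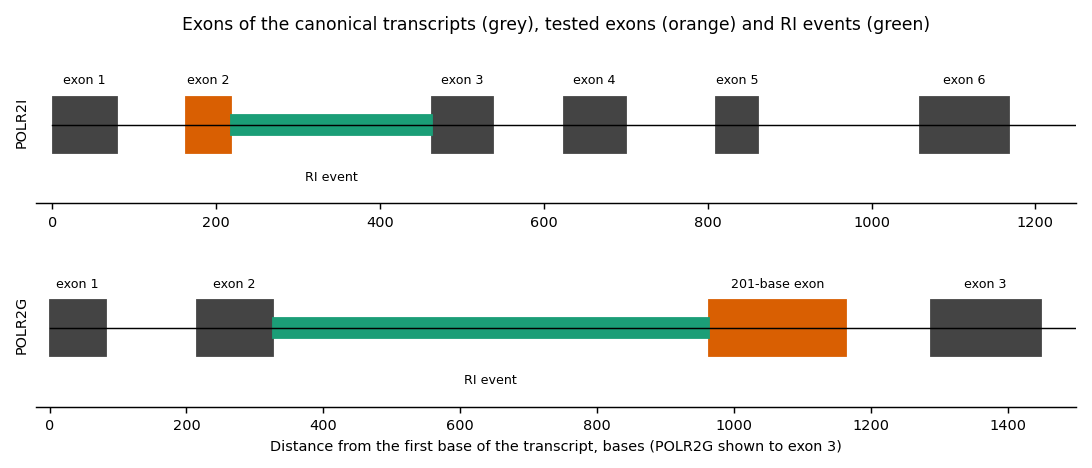
Exons of the canonical POLR2I and POLR2G transcripts drawn to scale, with distance from the first base of the transcript in bases on the x axis, grey and orange boxes for exons (orange: exon 2 of POLR2I and the 201-base exon of POLR2G) and green bars for the RI events. The RI event of POLR2I is the whole of its 246-base intron 2, whereas the 637-base RI event of POLR2G ends at the alternative exon and not at exon 3.

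In POLR2I the 55-base exon 2 (chr19:36605561-36605615, minus strand, exon 2 of 6, coding throughout) lies between an intron of 84 bases and an intron of 246 bases. Among the skipped exons of the 10 genes, this exon was called in the most comparisons, 7 of 8, and its called change was the largest in percentage points. On the log2 odds scale some exons that were included almost never or almost always, described further on, changed more. With DMSO for 4 days, Ψ in libraries a, b and c (named by their place in the deposited cells) was 96.9%, 96.5% and 98.1%, a mean of 97.2% ± 0.822 (SD, n = 3). It was 92%, 91.1% and 89.3% with GSK591 for 4 days, 94.4%, 96.3% and 96.4% with MS023 for 4 days and 82.8%, 84.4% and 84.6% with co-treatment for 4 days. The DMSO, GSK591 and co-treatment libraries did not overlap, and the highest MS023 library lay just under the lowest DMSO library. The groups rested on 902 to 1859 reads per library at 4 days. These are bulk libraries, in which a small change in every cell and a larger change in some cells cannot be told apart.

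At 2 days the order of the groups was the same. Ψ was 91.9%, 89.1% and 92.9% with GSK591, 92.9%, 95.6% and 94.6% with MS023 and 83.2%, 86.3% and 82.7% with co-treatment. At 7 days it was 97%, 96.9% and 96.1% in DMSO, 92.1%, 92.8% and 91.9% with GSK591 and 94.8%, 94.8% and 93.8% with MS023. At each time all inhibitor libraries lay below the lowest DMSO library they were compared with.

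In a quasi-binomial model of inclusion and skipping reads, fitted to all events and adjusted within the event type, exon 2 inclusion fell with GSK591 at 2 days (log2 odds ratio −1.70 ± 0.22 SE, adjusted p = 8.66e-08), 4 days (−1.79 ± 0.21, adjusted p = 2.53e-09) and 7 days (−1.28 ± 0.19, adjusted p = 2.5e-09). It fell with co-treatment at 2 days (−2.69 ± 0.20, adjusted p = 1.42e-16) and 4 days (−2.72 ± 0.20, adjusted p = 2.06e-15). With MS023 it fell at 2 days (−1.04 ± 0.22, adjusted p = 0.000174) and 7 days (−0.77 ± 0.18, adjusted p = 0.000833), and the 4-day value missed the threshold (−0.65 ± 0.23, adjusted p = 0.0922). The odds ratios are from the read counts themselves, without the length correction of Ψ.

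The inhibitors were also compared with each other. The difference in exon 2 inclusion, GSK591 minus MS023, was −3.07, −4.89 and −2.2 percentage points at 2, 4 and 7 days (log2 odds ratios −0.66 ± 0.18, −1.14 ± 0.21 and −0.51 ± 0.18; quasi-binomial adjusted p = 0.00666, 2.12e-06 and 0.0351). The difference of co-treatment minus GSK591 alone was −7.22 percentage points at 2 days (−0.99 ± 0.16, adjusted p = 7.49e-08) and −6.9 percentage points at 4 days (−0.93 ± 0.17, adjusted p = 2.84e-06). The difference between DMSO at 7 and 4 days was not called (adjusted p = 0.606). The 5 calls with GSK591 or co-treatment against DMSO held when any 1 library was left out. Those with MS023 did not: at 2 days the adjusted p was 0.174 without MS023 library a and 0.12 without c, and at 7 days 0.071 without DMSO library a and 0.0818 without MS023 library c. The difference between the inhibitors at 7 days was lost with any 1 of the 6 libraries left out (adjusted p = 0.0504 to 0.148), and that at 2 days without MS023 library b or c or GSK591 library b (adjusted p = 0.188, 0.145 and 0.116).

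Exon 2 is 55 bases long, which is no multiple of 3. In the canonical transcript of 125 codons, joining exon 1 to exon 3 gave a reading frame of 46 codons before the first stop codon, which then lay 119 bases before the last exon junction. Exons this short between introns this short were few in the tables: of 94667 cassette exons listed, 4098 (4.33%) had both flanking introns of at most 246 bases, and 374 (0.395%) were at most 55 bases long as well.

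Intron 2 of POLR2I (chr19:36605315-36605560), the intron that follows this exon, was the only whole intron of the 10 genes listed as an RI event. It was called higher with GSK591 at each time, and lower with MS023 at 7 days only. Its retention was 3.92%, 6.37% and 5.36% in the 4-day DMSO libraries, 8.06%, 8.32% and 9.09% with GSK591, 4.51%, 4.54% and 4.14% with MS023 and 8.04%, 9.06% and 7.84% with co-treatment at 4 days. All GSK591 and co-treatment libraries lay above all DMSO libraries, and the MS023 libraries lay within the DMSO range. At 7 days it was 3.54%, 2.94% and 3.76% in DMSO, 6.85%, 6.58% and 7.71% with GSK591 and 2.47%, 2.41% and 2.79% with MS023, with no overlap between the 3 groups. At 2 days the means were 7.33% ± 0.722 for GSK591, 6.67% ± 0.38 for co-treatment and 4.85% ± 0.524 for MS023 (SD, n = 3 each).

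Retention rose with GSK591 at 2, 4 and 7 days (log2 odds ratios 0.50 ± 0.15, 0.76 ± 0.14 and 1.10 ± 0.12; quasi-binomial adjusted p = 0.0196, 0.000189 and 3.91e-07) and with co-treatment at 4 days (0.73 ± 0.15, adjusted p = 0.000313). The co-treatment value at 2 days missed the threshold (0.39 ± 0.15, adjusted p = 0.0559). With MS023 it fell at 7 days (−0.43 ± 0.13, adjusted p = 0.0311) and was not called at 2 days (−0.10 ± 0.14, adjusted p = 0.765) or 4 days (−0.24 ± 0.15, adjusted p = 0.399). GSK591 stood above MS023 by 2.48, 4.09 and 4.49 percentage points at 2, 4 and 7 days (adjusted p = 0.000861, 1.48e-08 and 8.09e-16). Left-out libraries ended the 2-day GSK591 call in 4 of 6 cases (adjusted p up to 0.128, without DMSO library a) and the 7-day MS023 call in 4 of 6 (up to 0.138, without DMSO library c). Retention was also lower in DMSO at 7 days than at 4 days, with a difference of −1.8 percentage points (−0.63 ± 0.16, adjusted p = 0.014), a call lost in 4 of 6 cases (up to 0.0863, without 7-day DMSO library a).

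Exon 2 skipping and intron 2 retention in POLR2I were ordered differently over the groups. Exon 2 inclusion was lowest with co-treatment, while intron 2 retention with co-treatment (8.31% ± 0.655 at 4 days) and under GSK591 alone (8.49% ± 0.534) differed by a log2 odds ratio of −0.03 ± 0.12, which was not called (adjusted p = 0.932). With intron 2 kept, the reading frame ran for 74 codons before its first stop codon, 336 bases before the last junction. TBCB and a further annotated gene overlap both intron 2 and exon 2 on the opposite strand. The strand setting of the counting is not given in the sources used here, so reads of these genes within either stretch cannot be told apart.

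**Figure D2:**
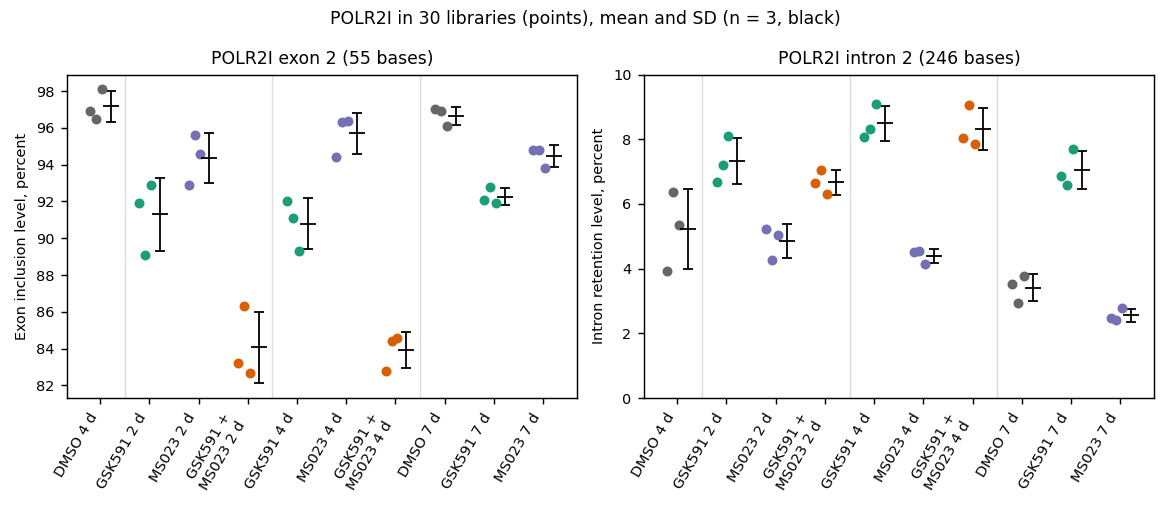
POLR2I exon 2 inclusion level and intron 2 retention level in percent (y axes) in the 30 libraries (points), by group (x axis), with mean and SD (black, n = 3). Exon 2 inclusion falls to 84.1% and 83.9% on average with both inhibitors, and intron 2 retention lies above the DMSO libraries of 4 days in all GSK591 libraries of 4 days.

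In POLR2G 7 of 18 segments were called in at least 1 of the 8 comparisons with DMSO (all segments 19.4%). They overlap on 1 region, and 4 of the 7 share skipping reads in pairs. The share of reads at the alternative acceptor within intron 2 is given as a description, without a test. Of the junction reads that left exon 2 for this acceptor or for exon 3, the 4-day DMSO libraries had 18 against 1068, 36 against 1188 and 24 against 1055, or 1.66%, 2.94% and 2.22% for the alternative acceptor. With co-treatment for 4 days the reads were 95 against 881, 68 against 800 and 49 against 845, or 9.73%, 7.83% and 5.48%. All 3 libraries lay above all DMSO libraries, and they were spread widely among themselves. The means of the other groups were 3.72% ± 0.417 with GSK591 and 3.34% ± 0.481 with MS023 at 4 days, at 7 days 2.46% ± 0.85 in DMSO, 6.45% ± 0.984 for GSK591 and 5.07% ± 0.805 for MS023, and 3.76% ± 0.781, 3.93% ± 0.612 and 4.45% ± 1.31 with GSK591, MS023 and co-treatment at 2 days (SD, n = 3 each).

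The 201-base exon that begins at this acceptor was tested as a cassette exon. Its Ψ was 1.53%, 2.04% and 1.59% in DMSO, 2.27%, 3.33% and 2.59% with GSK591, 2.26%, 2.99% and 1.88% with MS023 and 6.88%, 5% and 3.27% with co-treatment, all at 4 days. Co-treatment did not overlap DMSO, and MS023 did. At 7 days it was 1.47%, 2.46% and 2.36% in DMSO, 4.14%, 4.01% and 3.65% with GSK591 and 3.79%, 3.35% and 2.71% with MS023, and no inhibitor library overlapped DMSO. The exon rose in 6 of the 8 comparisons, with log2 odds ratios of 0.67 ± 0.20 (MS023, 2 days), 0.75 ± 0.21 (co-treatment, 2 days), 0.68 ± 0.21 (GSK591, 4 days), 1.61 ± 0.22 (co-treatment, 4 days), 0.95 ± 0.19 (GSK591, 7 days) and 0.68 ± 0.18 (MS023, 7 days). The quasi-binomial adjusted p-values were 0.0338, 0.0104, 0.0296, 1.51e-07, 1.25e-05 and 0.00702 in that order. The 2-day GSK591 and the 4-day MS023 comparisons did not pass. Left-out libraries ended no call in the 4-day co-treatment and the 7-day GSK591 comparisons, and 4 or 5 of 6 fits lost each of the other 4 calls (adjusted p up to 0.117 to 0.379). With limma on the log2 odds neither of the first pair passed (adjusted p = 0.182 and 0.481).

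The canonical reading frame has 172 codons. With the exon added after exons 1 and 2, the frame ran for 64 codons, the last of them in the added exon, before the first stop codon, which is the capital TGA of the sequence above, 511 bases before the last junction. Co-treatment at 4 days exceeded GSK591 alone by 2.32 percentage points (0.92 ± 0.20, adjusted p = 0.000149), a call lost without co-treatment library a (adjusted p = 0.169) and with limma (0.61). A 325-base form of the exon, which runs on to exon 3 (chr11:62530014-62530338), was read in MXE segments. It begins at the same acceptor and holds the whole 201-base exon, so its inclusion reads can be those of the shorter form. The changes of its MXE segments are therefore not separate from the rise of the 201-base exon. As an alternative to exon 3 the 325-base form had a Ψ of 3.6%, 3.96% and 2.76% in DMSO, 5.43%, 5.47% and 5.46% with GSK591, 3.99%, 5.3% and 3.48% with MS023 and 9.45%, 8.43% and 6.15% with co-treatment at 4 days. GSK591 and co-treatment lay above DMSO. It rose with GSK591 at 4 days (0.68 ± 0.16, adjusted p = 0.00543) and 7 days (1.00 ± 0.15, adjusted p = 0.000287), with co-treatment at 4 days (1.29 ± 0.17, adjusted p = 4.4e-06) and with MS023 at 7 days (0.62 ± 0.17, adjusted p = 0.0463, lost in 4 of 6 fits with a library left out, up to 0.305). The 201-base exon as an alternative to exon 3 shares its exon 3 reads and was called higher with co-treatment at 4 days (1.62 ± 0.25, adjusted p = 4.38e-05). That segment was tested in this comparison only, so it is no separate evidence for the rise of the cassette exon. In the choice between exon 2 and the 325-base exon, exon 2 fell with GSK591 at 4 days, to 86.7% ± 0.114 from 91.1% ± 1.67 (−0.64 ± 0.19, adjusted p = 0.0335, lost in 4 of 6 fits, up to 0.149), and at 7 days, to 87.9% ± 1.43 from 93.3% ± 0.902 (−0.93 ± 0.18, adjusted p = 0.00358), and with co-treatment at 4 days, to 83.6% ± 2.49 (−1.01 ± 0.18, adjusted p = 0.000367).

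The RI event of POLR2G (chr11:62529377-62530013) covers the part of intron 2 between exon 2 and this acceptor, so its spliced form is the alternative junction and not the canonical one. Its Ψ was 69.2%, 50.7% and 60.8% in DMSO, 57.9%, 56.9% and 58.2% with GSK591, 45.4%, 36.5% and 49.7% with MS023 and 25.4%, 28.9% and 37.8% with co-treatment at 4 days. Only the co-treatment and the MS023 libraries lay below all DMSO libraries. At 7 days it was 63.4%, 50.3% and 53.5% in DMSO, 35.2%, 32.7% and 38.4% with GSK591 and 29.7%, 35.8% and 36.7% with MS023, with both inhibitors below DMSO. It fell with co-treatment at 4 days (−1.79 ± 0.33, adjusted p = 6.76e-05), with GSK591 at 7 days (−1.16 ± 0.29, adjusted p = 0.00374) and with MS023 at 7 days (−1.24 ± 0.31, adjusted p = 0.0053), and each call held without any 1 library. Co-treatment minus GSK591 alone was −27 percentage points at 4 days (−1.68 ± 0.31, adjusted p = 6.71e-05). Reads on this event numbered 133 to 342 per library.

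**Figure D3:**
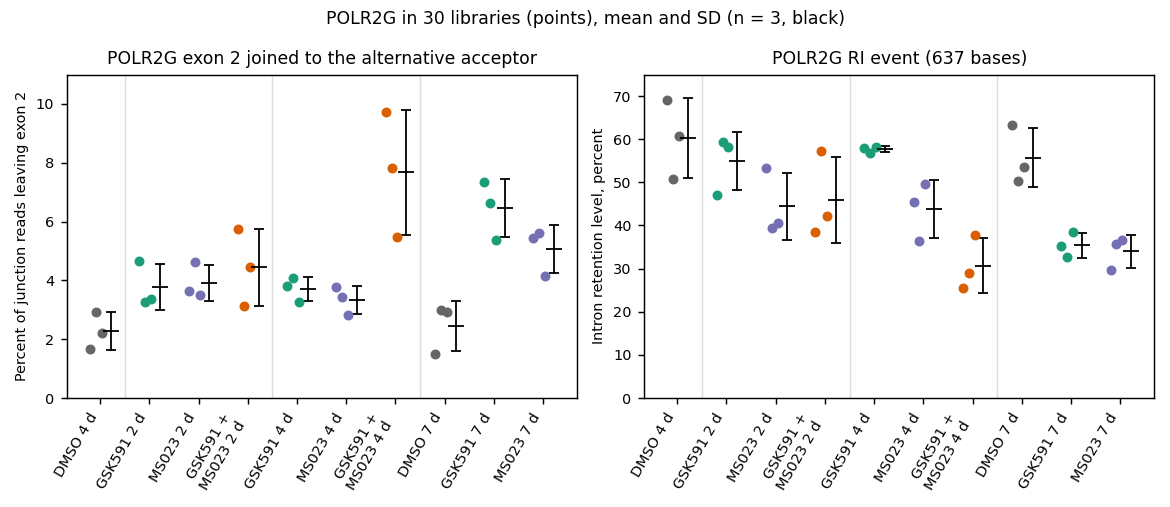
POLR2G in 30 libraries (points) by group (x axis) with mean and SD (black, n = 3): percent of junction reads leaving exon 2 for the alternative acceptor (left) and Ψ of the 637-base RI event in percent (right). The acceptor share is highest with both inhibitors for 4 days, where the RI event has its lowest mean of 30.7%. Reads from exon 2 to this acceptor enter both panels, so the panels are not independent. The right panel leaves out reads from exon 2 to exon 3 and is not the retention of intron 2.

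Exon 2 of POLR2G (chr11:62529267-62529376, 110 bases) moved in opposite directions at different times. Ψ was 98.8% ± 0.213 in 4-day DMSO and 97% ± 1.22 with GSK591 for 2 days (−1.40 ± 0.37, quasi-binomial adjusted p = 0.00868). It fell with co-treatment at 2 days (−1.27 ± 0.37, adjusted p = 0.013) and rose with GSK591 at 7 days, to 98.7% from 97.3% in DMSO (1.09 ± 0.39, adjusted p = 0.0391). DMSO itself was lower at 7 days than at 4 days (−1.23 ± 0.37, adjusted p = 0.0294), and every one of these calls was lost in 4 to 6 of the 6 fits with a library left out. A 390-base form of the exon (chr11:62529267-62529656) uses the same skipping reads.

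POLR2D, the partner of POLR2G in the stalk, changed the other way from POLR2I. Exon 2 (chr2:128610499-128610679, 181 bases, minus strand) had a Ψ of 92%, 88.9% and 92.8% in 4-day DMSO, 98.2%, 98.1% and 98.9% with co-treatment for 2 days and 97.5%, 97.3% and 93.2% with co-treatment for 4 days. All co-treated libraries lay above all DMSO libraries. It rose at 2 days (2.47 ± 0.55, adjusted p = 3.68e-05) and at 4 days (1.21 ± 0.43, adjusted p = 0.0323), and the 4-day call was lost in 5 of 6 fits with a library left out (adjusted p up to 0.246, without co-treatment library a). The GSK591 means were 95.2% ± 0.956 at 2 days and 95.3% ± 1.22 at 4 days (SD, n = 3) and were not called against DMSO. GSK591 exceeded MS023 at 2 days by 4.71 percentage points (1.06 ± 0.36, adjusted p = 0.0279), a call lost in 5 of 6 fits with a library left out (up to 0.315, without MS023 library a). With this exon skipped, the reading frame ran for 53 codons before the first stop codon, against 142 in the canonical transcript.

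POLR2J exon 2 (chr7:102116628-102116717, 90 bases, minus strand) was 95.3%, 96% and 96.1% in 4-day DMSO and 92.8%, 93.9% and 91.2% with co-treatment for 2 days, and 92.1%, 92.2% and 92.4% for 4 days. Co-treated libraries lay below DMSO at both times. It fell at 2 days (−0.85 ± 0.28, adjusted p = 0.0318, lost in all 6 fits with a library left out) and 4 days (−0.94 ± 0.26, adjusted p = 0.00937, lost only without co-treatment library a, adjusted p = 0.0661). Its length keeps the reading frame. POLR2J has near-identical copies in the genome (POLR2J2, POLR2J3 and POLR2J4), so the assignment of its reads is uncertain.

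None of the 7 POLR2C segments, 1 of 14 POLR2A segments and 2 of 17 POLR2B segments were called in any comparison with DMSO, where 19.4% of all segments were called in at least 1. The most covered segments were POLR2A exon 25 (chr17:7415130-7415333), POLR2B exon 14 (chr4:57881668-57881822) and POLR2C exon 3 (chr16:57499865-57499933), with group means of Ψ from 99.5% to 100% and no call against DMSO. POLR2C exon 3 was called lower with GSK591 than with MS023 at 4 days (−0.407 percentage points, adjusted p = 0.035), a call lost in 5 of 6 fits with a library left out (up to 0.105, without MS023 library b). The single calls, named after their values were seen, were small. POLR2A exon 6 was lower with co-treatment at 2 days (−0.561 percentage points, log2 odds ratio −4.42 ± 2.55, adjusted p = 0.049). This exon was tested in that comparison only. Its DMSO libraries were all at 100%, so only a fall could be seen. POLR2B exon 3 was higher by 1.05 with GSK591 at 4 days (log2 odds ratio 4.52 ± 2.49, adjusted p = 0.0198). At 2 days with GSK591 it was lower by a difference of −1.09, with no call (quasi-binomial adjusted p = 0.275). A 198-base exon in POLR2B intron 1 was lower with co-treatment at 4 days (−1.27, adjusted p = 0.021). For these and the other segments called in 1 comparison only, results with a library left out are not given.

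Among the shared subunits, POLR2F had 2 minor forms that fell with GSK591. Both stretches lie within intron 2 and reads inside them count as inclusion, so reads of unspliced intron 2 cannot be told apart. The alternative 5′ splice site 59 bases into intron 2 (chr22:38352850-38352908) had a Ψ of 3.42%, 2.58% and 2.87% in DMSO, 0.563%, 1.55% and 1% with GSK591, 1.9%, 2.25% and 1.97% with MS023 and 0.432%, 0.93% and 0.949% with co-treatment at 4 days. All inhibitor libraries lay below DMSO, and GSK591 and co-treatment lay below MS023. At 7 days it was 1.69%, 2.08% and 2.6% in DMSO, 0.419%, 1.03% and 0.327% with GSK591 and 2.12%, 1.61% and 2.2% with MS023. MS023 overlapped DMSO there, and GSK591 did not. The form fell with GSK591 at 4 days (−1.54 ± 0.36, adjusted p = 0.00116) and 7 days (−1.84 ± 0.38, adjusted p = 2.04e-05) and with co-treatment at 2 days (−1.06 ± 0.34, adjusted p = 0.0214) and 4 days (−1.99 ± 0.41, adjusted p = 0.00011). The 2-day call was lost in 4 of 6 fits with a library left out (adjusted p up to 0.141), the other 3 in none. GSK591 lay below MS023 at 4 days (−0.99 ± 0.41, adjusted p = 0.0444, lost in 5 of 6 fits, up to 0.227 without GSK591 library a) and at 7 days (−1.75 ± 0.39, adjusted p = 8.5e-06).

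The 98-base exon of POLR2F (chr22:38354381-38354478) shares its skipping reads with that splice site. Its Ψ was 0.664%, 1.54% and 1.29% in 4-day DMSO libraries, 0%, 0% and 0.197% after GSK591 for 4 days, 0.541%, 0.483% and 0.306% after MS023 and 0%, 0.079% and 0.0896% after co-treatment. It fell with GSK591 at 2 days (−1.30 ± 0.42, adjusted p = 0.0424) and 4 days (−3.88 ± 1.01, adjusted p = 4.28e-05) and with co-treatment at 2 days (−2.62 ± 0.69, adjusted p = 0.000529) and 4 days (−4.13 ± 1.14, adjusted p = 3.47e-05). Left-out libraries ended the 2-day GSK591 call in 5 of 6 fits (adjusted p up to 0.242, without DMSO library b) and the 2-day co-treatment call in 1 (0.0593, without co-treatment library b). The sizes at 4 days are uncertain, since few inclusion reads were left. At 7 days, when DMSO itself was at 0.518% ± 0.32, GSK591 was at 0.342% ± 0.183 (SD, n = 3), with no call. With the alternative splice site and with the 98-base exon, the reading frame ran for 76 and 31 codons before the first stop codon, against 127 in the canonical transcript. Exon 3 of POLR2F (chr22:38355353-38355483, 131 bases) was skipped more with co-treatment at 2 days, 97.1% ± 0.319 against 98.7% ± 0.167 (−1.17 ± 0.34, adjusted p = 0.0111), and with MS023 at 7 days, 98.1% ± 0.31 against 99.4% ± 0.203 (−1.54 ± 0.39, adjusted p = 0.00113). These calls were lost in 3 and 2 of 6 fits with a library left out (adjusted p up to 0.065, without co-treatment library a, and 0.0804, without MS023 library c). GSK591 at 7 days was at 99.6% ± 0.385 and lay 1.47 percentage points above MS023 (2.28 ± 0.52, adjusted p = 9.27e-06).

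POLR2E exon 4, printed above, was 99.7%, 99.4% and 99.2% in 4-day DMSO, 97.9%, 97.4% and 97.8% with co-treatment for 2 days and 98.7%, 96.9% and 98.1% for 4 days. The co-treated libraries lay below DMSO throughout. It fell at 2 days (−2.00 ± 0.40, adjusted p = 7.38e-05) and 4 days (−1.84 ± 0.44, adjusted p = 0.00174), and the 4-day call was lost without co-treatment library b (adjusted p = 0.0981). Its skipping keeps the frame, which then had 183 codons against 210. At 4 days it was also lower with GSK591 than with MS023, with a difference of −0.899 percentage points (−2.26 ± 0.74, adjusted p = 0.00545), a call lost in 4 of 6 fits with a library left out (up to 0.0927, without MS023 library c). POLR2E exon 2 (chr19:1093903-1094077, 175 bases) was 99.4%, 99.6% and 99.3% in DMSO, 99.4%, 97.9% and 98% with MS023 and 98.8%, 97.9% and 99.1% with co-treatment at 4 days. It fell with MS023 (−1.49 ± 0.42, adjusted p = 0.0126) and with co-treatment (−1.33 ± 0.44, adjusted p = 0.0351), and these calls were lost in 4 and 6 of 6 fits with a library left out. An A5SS segment over the same exon uses the same skipping reads. A 4-base A3SS segment at exon 5 was called lower with co-treatment at 4 days (−0.389 percentage points, adjusted p = 0.0119).

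The POLR2H calls came mainly from co-treatment at 4 days, where 4 segments were called (all segments 15.8%). The gene had 11 segments over all comparisons, not all of them tested in each. All 4 called segments involve exon 2, so they are not separate results. The choice between exon 2 (chr3:184080661-184081353) and exon 4 (chr3:184082921-184083014) had a Ψ for exon 2 of 29.8%, 26.2% and 30.6% in DMSO, 32.3%, 36.1% and 37.4% with GSK591, 29.4%, 24.4% and 26.2% with MS023 and 40.1%, 40.2% and 41% with co-treatment at 4 days. Co-treatment lay above all other groups and MS023 overlapped DMSO. In this choice, which leaves out transcripts with both exons, exon 2 rose with GSK591 (0.45 ± 0.14, adjusted p = 0.0498, lost in all 6 fits with a library left out). It also rose with co-treatment (0.76 ± 0.13, adjusted p = 0.000296), and GSK591 exceeded MS023 by 8.61 percentage points (0.59 ± 0.14, adjusted p = 0.00151). The segment was not tested at 7 days. Skipping of exon 2 alone was also called with co-treatment at 4 days, 91.5% ± 3.6 against 97.7% ± 1.52 (−1.91 ± 0.62, adjusted p = 0.0128), and a 340-base form of exon 2 uses the same skipping reads. That form as an alternative to exon 3 was higher in the same comparison (0.78 ± 0.16, adjusted p = 0.0014).

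**Figure D4:**
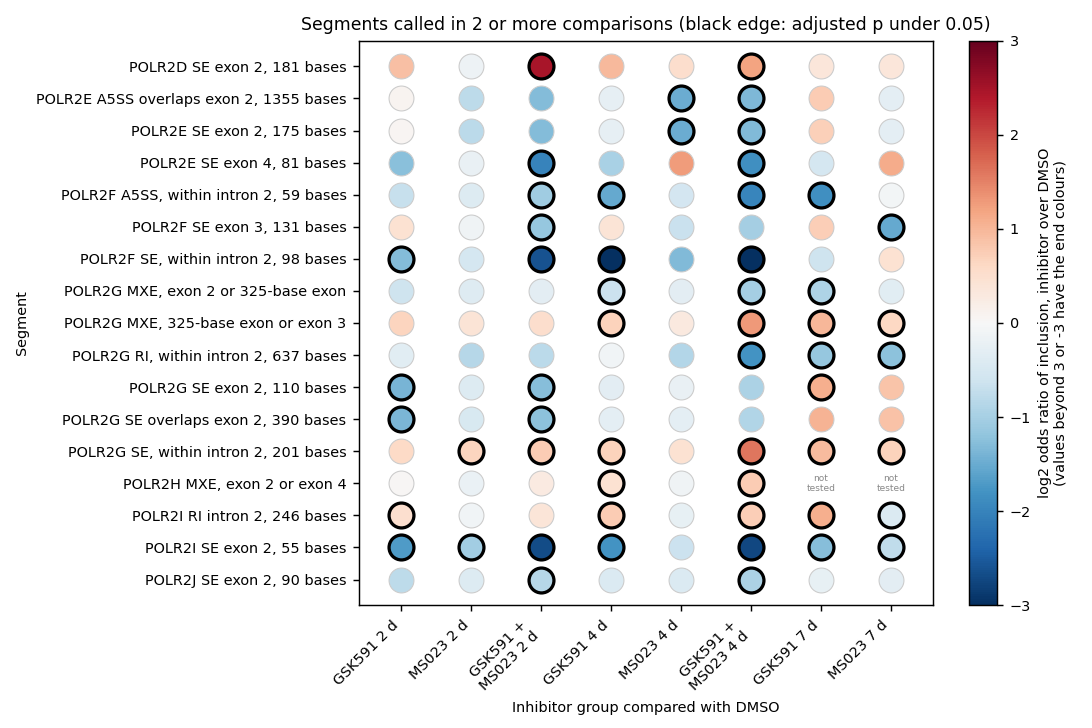
The 17 segments of the 10 genes called in at least 2 of the 8 comparisons (y axis) against the inhibitor groups (x axis), coloured by the log2 odds ratio of inclusion over DMSO, with a black edge where the adjusted p was under 0.05. POLR2I exon 2 is called lower in 7 of 8 comparisons, whereas POLR2D exon 2 is called higher with co-treatment.

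Counted over all 10 genes, 25 of 91 segments were called in at least 1 of the 8 comparisons with DMSO (all segments 19.4%), on 15 separate stretches. Of these, 5 sets that hold 10 segments share equal skipping counts, so segments are not independent. All 91 had at least 10 reads in every library of at least 1 comparison, and 84 were listed with enough reads in 4-day DMSO, of which 54 had a Ψ above 90% and 13 below 10%. With GSK591 for 2 days 5 of 53 tested segments were called (9.43%), against 7.71% of all segments in the tables. With MS023 for 2 days 2 of 52 were called (3.85%, all segments 3.48%), and with co-treatment for 2 days 11 of 55 (20%, all segments 14.4%). At 4 days the counts were 9 of 61 with GSK591 (14.8%, all segments 12.3%), 2 of 47 with MS023 (4.26%, all segments 4.13%) and 20 of 58 with co-treatment (34.5%, all segments 15.8%). At 7 days they were 8 of 56 with GSK591 (14.3%, all segments 9.77%) and 6 of 61 with MS023 (9.84%, all segments 5.23%). The shares thus lay near the background for MS023 at 2 and 4 days and for GSK591 at 2 and 4 days. Co-treatment at 4 days had the highest share, 34.5%, in 8 of the 10 genes. Several of its calls overlap on the same exons, as in POLR2G, POLR2H and POLR2E, so the share is no count of separate changes. With limma the share in that comparison was 8.62%, against 6% of all segments.

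**Figure D5:**
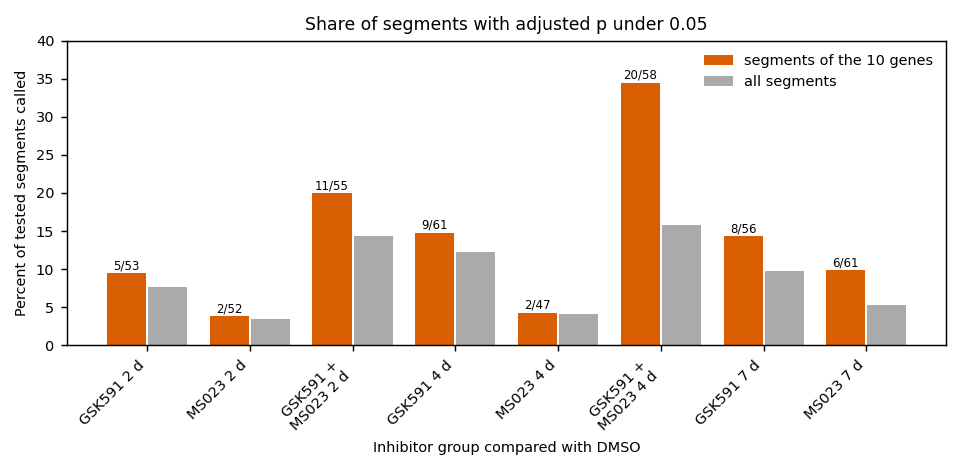
Percent of tested segments with adjusted p under 0.05 (y axis, from 0) in the 8 comparisons with DMSO (x axis), for the segments of the 10 genes (orange, counts called over tested above the bars) and for all segments in the tables (grey). The bars for co-treatment at 4 days, 20 of 58 against 15.8%, are the furthest apart, and several of the 20 segments overlap on the same exons.

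Changes were mostly small. The median absolute change of Ψ over the segments of the 10 genes was 0.00949 on the scale from 0 to 1 with co-treatment at 4 days, against 0.0132 over all segments, and it lay below that of all segments in each of the 8 comparisons. Skipped exons called lower were 4 of 34 with GSK591 (all SE segments 6.41%), 1 of 35 with MS023 (2.99%) at 2 days, and co-treatment had 8 of 37 (12.6%). They were 2 of 40 (8.81%), 1 of 31 (3.12%) and 8 of 38 (11.4%) at 4 days, and 1 of 39 with GSK591 (5.53%) and 2 of 42 with MS023 (2.81%) at 7 days. The 61 skipped exons of the 10 genes were 50 to 1072 bases long with a median of 133, and 26 were multiples of 3. The 15 that were called were 55 to 693 bases long with a median of 162, and 7 were multiples of 3.

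The groups were compared directly as well. Between GSK591 and MS023, 4 of 42 segments of the 10 genes were called at 2 days (all segments 12.4%), 11 of 44 at 4 days (18%) and 4 of 46 at 7 days (15.5%). Between co-treatment and GSK591 alone, 2 of 46 were called at 2 days (4.56%) and 6 of 45 at 4 days (6.89%). Between 7-day and 4-day DMSO 5 of 53 were called (7.92%), among them intron 2 of POLR2I and exon 2 of POLR2G. The effect of GSK591 at 7 days against that at 4 days was called in 0 of 47 segments by the quasi-binomial model (all segments 1.67%), with 6 at an unadjusted p under 0.05, and limma on the log2 odds of inclusion also called 0, with 4 at an unadjusted p under 0.05. For MS023 the counts were 0 of 42 (all segments 0.0727%) with 3 unadjusted, and 0 by limma with 1 unadjusted. A difference of an effect between the times was therefore not called for any segment of the 10 genes.

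Other genes of the transcription machinery were counted from lists, by RI and other segments at 4 days. Over all segments, RI segments were higher in 33.9% of those tested for GSK591, 33.6% for co-treatment and 1.57% for MS023, and lower in 4.32%, 6.1% and 5.6%. Segments of the other types were higher in 3.97%, 5.28% and 1.46%, and lower in 7.07%, 9.39% and 2.52%, in the same order.

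The elongation factors, which assist the transcribing polymerase, had the most RI segments. With GSK591 9 of 19 were higher and 0 lower, with co-treatment 10 of 18 higher and 1 lower, and with MS023 0 of 18 were called. Their other segments were higher in 5 and lower in 7 of 148 with GSK591, 6 and 10 of 141 with co-treatment and 2 and 3 of 128 with MS023. The most changed was an intron of TCEA2, a factor that rescues stalled polymerase, at a Ψ of 0.639 with co-treatment for 2 days against 0.28 in DMSO (adjusted p = 5.74e-05), followed by a further TCEA2 intron (0.461 against 0.19, adjusted p = 0.00121). An intron of NELFE, a subunit of the pausing factor NELF, was at 0.544 with GSK591 for 7 days against 0.293 (adjusted p = 0.000493).

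The general initiation factors had 4 of 8 RI segments higher and 0 lower with GSK591, the same counts with co-treatment, and 1 of 8 lower with MS023. Of their other segments 2 were higher and 3 lower of 81 with GSK591, 2 and 6 of 93 with co-treatment and 0 and 1 of 85 with MS023. An intron of ERCC3, a helicase of TFIIH, was at 0.948 with co-treatment for 4 days against 0.642 (adjusted p = 2.19e-05). Exons of ERCC2 (0.708 against 0.92 with co-treatment for 2 days, adjusted p = 4.58e-05) and GTF2H2 (0.218 against 0.42 with GSK591 for 7 days, adjusted p = 0.00791), both of TFIIH, were skipped more. The GTF2H2 exon rested on as few as 36 reads in a library.

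The factors of Pol II assembly had 2 of 3 RI segments higher with GSK591, 3 of 3 with co-treatment and 1 of 3 lower with MS023, and of their other segments 6 were higher and 6 lower of 120 with GSK591, 5 and 8 of 122 with co-treatment and 1 and 2 of 123 with MS023. PIH1D1, a part of the R2TP chaperone complex, carried the most changed segments, with an intron at 0.589 with GSK591 for 4 days against 0.204 (adjusted p = 1.32e-10), an A5SS segment at 0.391 against 0.105 (adjusted p = 4.55e-10) and an MXE segment at 0.434 against 0.729 (adjusted p = 1.24e-06).

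The subunits particular to polymerases I and III had 2 of 4 RI segments higher with GSK591 and 0 of 4 called with co-treatment or MS023. Their other segments were higher in 6 and lower in 2 of 115 with GSK591, 6 and 4 of 121 with co-treatment and 2 and 1 of 128 with MS023. An MXE segment of CRCP was at 0.364 against 0.206 with GSK591 for 4 days (adjusted p = 0.012), and an exon of POLR3GL at 0.956 against 0.811 with co-treatment for 4 days (adjusted p = 8.46e-06).

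The phosphatases of the carboxy-terminal domain and their partners had 0 of 2 RI segments called with GSK591 and MS023, and 1 higher and 1 lower of 2 with co-treatment. Their other segments were lower in 4 of 37, 7 of 38 and 2 of 34 with GSK591, co-treatment and MS023, and higher in 0. An exon of CTDP1 was at 0.336 with co-treatment for 2 days against 0.639 (adjusted p = 5.52e-07), an MXE segment over the same exon at 0.209 against 0.399 (adjusted p = 0.000915), and an intron of RPRD1A at 0.695 with co-treatment for 4 days against 0.924 (adjusted p = 0.0254). The remaining Pol II genes, POLR2K, POLR2L, POLR2M and the POLR2J copies, had 0 of 1 RI segment called in each 4-day comparison, and of the others 0 higher and 2 lower of 37 with GSK591, 3 and 1 of 38 with co-treatment and 1 and 0 of 41 with MS023. The most changed were 3 MXE segments of POLR2J3, at 0.284 against 0.72 (MS023, 2 days, adjusted p = 0.0338), 0.567 against 0.207 (co-treatment, 4 days, adjusted p = 0.0081) and 0.606 against 0.3 (MS023, 7 days, adjusted p = 0.0337), on 21 or more reads per library and with the same limit of near-identical copies.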

How the data were processed

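Poly(A) RNA of 30 libraries was sequenced as stranded 150-base paired ends. Per the labels' processing notes the authors used Trim Galore 0.6.5, STAR 2.4.2a, Picard 2.3.0 and deepTools 3.3.1 with hg19. The authors ran rMATS for each inhibitor group against DMSO, and the deposited tables hold, for each event and library, other values than gene levels: whole counts of inclusion and skipping reads over junctions and exon bodies, with Ψ. Ψ was recomputed from the counts and differed by at most 0.0005 over 6252703 values. The strand setting and annotation release are not given in the sources used here. Columns of the authors' p-values, FDR and differences were not used. Per-sample columns carry no replicate numbers, and libraries were named a, b and c by position.

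Each event with at least 10 reads in every library was tested in a quasi-binomial logistic model (R 4.3.3), with the dispersion moderated by limma 3.58.1 (squeezeVar) within event type and held at 1 or above, an F test, two-sided, and Benjamini-Hochberg adjustment within event type over all genes. Calls have an adjusted p under 0.05. Log odds have 0.5 added to counts. Direct comparisons joined tables by event coordinates; events with no inclusion or no skipping read in all libraries compared were not tested there, and events of 0 dispersion did not enter the prior, both decided after seeing the data. The model was also run on simulated counts with a fixed spread between libraries, which is no check of the calls in these data. On RI events, all 30 pairs of libraries within groups differed by more than sampling noise, with a chi-square per degree of freedom of 1.88 to 4.72. The highest values, 4.16 and 4.72, were those of 2-day GSK591 library a with libraries b and c. Other event types were not checked in this way. The 10 genes and the gene lists were chosen with earlier results of these data known. Named were every RI segment tested, every segment called in at least 2 of 8 comparisons and, for a gene with neither, the segment with most reads; for the lists, up to 3 called segments with the largest change and at least 20 reads per library. Samples of nascent RNA were not analysed here. Some named items are not reported here.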

Additional observations from a re-analysis of the deposited data

How the results depend on the processing

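No paired analysis was possible because the tables carry no replicate numbers. No result reversed under any setting. Depth differed between segments: the POLR2G RI event rested on 133 to 342 reads per library and POLR2I exon 2 on 902 to 1859 at 4 days. The counts of called segments of the 10 genes stayed within 1.5 times of those reported with a minimum of 20 reads, with 1 read, with adjustment over all event types and with a segment called from any of its rows. They were lower when limma tested log2 odds of inclusion, in which GSK591, MS023 and co-treatment against DMSO gave 0, 0 and 1 at 2 days and 1, 0 and 5 at 4 days, and GSK591 and MS023 gave 2 and 0 at 7 days. As shares of the tested segments, co-treatment gave 1.82% at 2 days and 8.62% at 4 days, against 4.32% and 6% of all segments by limma, and GSK591 0%, 1.64% and 3.57% at 2, 4 and 7 days, against 0.717%, 2.79% and 1.16%. With MS023 limma called 0.0277%, 0.0184% and 0.0253% of all segments at these times. Its 5 calls with co-treatment at 4 days were POLR2I exon 2 (adjusted p = 0.033), the POLR2G RI event (0.0188), both minor POLR2F forms (0.0399 and 0.0224) and the POLR2H MXE segment (0.0495). For POLR2I exon 2 with GSK591 limma gave an adjusted p of 0.291, 0.179 and 0.328 at 2, 4 and 7 days, so these calls rest on the model of read counts. Between GSK591 and MS023 it gave 0, 3 and 1 at 2, 4 and 7 days, between co-treatment and GSK591 0 and 0 at 2 and 4 days, and between the DMSO groups 1. The cause was not tested.

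With each library left out in turn, counts were 2 to 3 with GSK591, 0 to 2 with MS023 and 4 to 10 with co-treatment at 2 days, 5 to 8, 0 to 2 and 12 to 19 at 4 days, and 7 to 7 with GSK591 and 2 to 4 with MS023 at 7 days. They were 1 to 3, 4 to 8 and 3 to 5 between GSK591 and MS023 at 2, 4 and 7 days, 2 to 4 and 2 to 7 between co-treatment and GSK591 at 2 and 4 days, 2 to 6 between the DMSO groups and 0 to 0 for the effect of either inhibitor at 7 against 4 days. Co-treatment at 4 days fell to 12 without its library a and to 13 without DMSO library b, and at 2 days to 4 without its library a and 5 without DMSO library a. GSK591 at 4 days fell to 5 without DMSO library c or any 1 of its own libraries, and GSK591 at 2 days to 2 or 3 without any 1 library. MS023 fell to 0 at 2 days without its library a or c, to 0 at 4 days without its library b or c or DMSO library b, and to 2 at 7 days without DMSO library a. Fits with 2 libraries in a group have fewer samples. Of the calls of named segments, 309 held and 177 were lost over all such fits. With limma 12 of the 81 calls held and 69 were lost. Under the other read minimums and the adjustment over all event types 239 of 243 held and 4 were lost. Differences in Ψ moved by more than the spread between libraries in 52 of 81 cases when Ψ was not corrected for length, and in 0 when reads were summed over libraries.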
